A study of Mus musculus with 10 samples.

Results

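The collagens other than type IV were followed in embryonic mouse lenses with and without Dicer, the ribonuclease that makes mature microRNAs. The members were all genes whose platform symbol has the form Col, a number, a and a number, without Col4a1 to Col4a6 of the lens capsule. They made 38 of the 19938 genes on the array and were read from 40 probe sets. The 38 genes comprise 11 fibrillar, 9 fibril-associated and 18 other collagens. Lenses were taken at E13.5 (embryonic day) from 5 control embryos (Le-Cre-/-;DicerloxP/loxP, titled wt) and from 5 DicerCN embryos (Le-Cre+/-;DicerloxP/loxP), with 1 array for the combined lens pair of each embryo. Both groups carried 2 loxP-flanked Dicer alleles, and only DicerCN embryos carried Le-Cre, a Cre transgene under the Pax6 P0 promoter that acts from E9.0 in surface ectoderm, the source of lens and corneal epithelium. No group carried Cre without flanked Dicer, so an effect of Cre itself cannot be told apart from that of the deletion. The labels do not say which exons of Dicer are flanked or how complete the deletion was.

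Collagens are trimers of chains that wind into a triple helix. Fibrillar collagens, among them types I, II, III, V and XI, are secreted as procollagens, trimmed at both ends and packed into fibrils. Fibril-associated collagens, such as types IX, XII and XIV, have interrupted helices and sit on the fibril surface. Other families build beaded filaments (type VI), hexagonal networks (type VIII), anchoring fibrils (type VII) or basement membrane proteoglycans (types XV and XVIII), or span the cell membrane (types XIII, XVII, XXIII and XXV). The lens is an epithelial body inside a type IV collagen capsule, whereas interstitial fibrillar collagens are made mostly by mesenchyme, and types II and IX are the fibril collagens of the vitreous next to the lens.

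Mature microRNAs of the miR-29 family are shown because they depend on Dicer and are the microRNAs best known for binding collagen messages, Col1a1, Col1a2 and Col3a1 among them. They share 1 seed, bases 2 to 8, given in capitals (sequences from RefSeq, build GRCm38.p6).
miR-29a-3p: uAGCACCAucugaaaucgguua
miR-29b-3p: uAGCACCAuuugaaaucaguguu
miR-29c-3p: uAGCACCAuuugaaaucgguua

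The 250 bases before the RefSeq start site are shown for Col13a1, the only collagen that passed the test with all arrays, and for Col1a2 and Col3a1, which were high on the same arrays. Capitals mark the motif CCAAT of the CCAAT box, the motif TATAAA of the TATA box and the motif GGGCGG of the GC box, searched on both strands; the marked matches do not overlap one another. Build GRCm38.p6 was used for all, and Col1a1 and Col5a2 had no entry.
Col13a1, chr10:61979109-61979358, minus strand: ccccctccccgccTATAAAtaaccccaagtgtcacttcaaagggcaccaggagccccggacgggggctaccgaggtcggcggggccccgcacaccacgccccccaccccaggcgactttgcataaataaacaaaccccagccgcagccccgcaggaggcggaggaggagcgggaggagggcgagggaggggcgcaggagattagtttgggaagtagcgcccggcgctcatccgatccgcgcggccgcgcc
Col1a2, chr6:4505368-4505617, plus strand: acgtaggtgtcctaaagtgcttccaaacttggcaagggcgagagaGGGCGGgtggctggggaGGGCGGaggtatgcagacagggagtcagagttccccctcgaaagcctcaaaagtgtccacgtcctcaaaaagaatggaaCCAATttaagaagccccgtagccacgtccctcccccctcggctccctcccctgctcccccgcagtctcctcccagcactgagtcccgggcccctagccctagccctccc
Col3a1, chr1:45311288-45311537, plus strand: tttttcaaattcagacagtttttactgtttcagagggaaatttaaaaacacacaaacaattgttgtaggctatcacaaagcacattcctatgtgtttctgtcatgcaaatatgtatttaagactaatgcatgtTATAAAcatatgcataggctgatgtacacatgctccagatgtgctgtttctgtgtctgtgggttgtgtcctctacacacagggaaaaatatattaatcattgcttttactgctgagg
The Col13a1 window was rich in G and C (68.8%) and that of Col3a1 poor (35.2%), against a median of 52.4% over 32851 promoter windows. CCAAT was found in the Col1a2 window, 109 bases before the start, and TATAAA in those of Col13a1 and Col3a1, 237 and 117 bases before it, while GGGCGG occurred 2 times in that of Col1a2. CCAAT lies in 33.8%, TATAAA in 12.4% and GGGCGG in 32.7% of all windows of this length. Of the 33 windows of the 30 collagen genes with an entry, 10 held CCAAT, 5 held TATAAA and 19 held GGGCGG. A match of letters is a description of the sequence only.

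Array medians of the deposited log2 signals lay between 6.54 and 6.56. Dicer1, the targeted gene, was at 10.01 to 10.32 in control and at 10.19 to 10.45 in DicerCN lenses, a change of 0.13 (SE 0.08, limma adjusted p = 0.472). Its probes may lie outside the flanked part, which the labels do not describe, so this level does not check the labels. The tissue carried its defining markers on every array. Cryaa, alpha A crystallin, had log2 signals from 14.33 to 14.46, and Mip, the main membrane protein of fibre cells, from 13.29 to 13.60. Of 12 lens markers, 0 passed the test in either direction. Their score (mean log2 signal minus the control mean) ran from −0.10 to 0.10 in control lenses. In DicerCN lenses it ran from −0.43, on replicate 5, to 0.18. The lens marker Bfsp2 varied within both groups, from 9.38 to 11.92 in control and from 8.88 to 12.06 in DicerCN lenses. Control replicate 4 stood apart from the other 9 arrays in striated muscle: a score over 10 muscle markers (mean log2 signal minus the control mean) was 2.73 on it and −0.91 to −0.50 on the rest. Its signal of Myh3, embryonic myosin, was 11.81 against 5.54 to 6.54 elsewhere. The score over 11 measured mesenchyme markers, none of them a collagen, was 0.63 on control replicate 4 and −0.23 to −0.06 on the other controls. In DicerCN replicates 1 to 5 it was 0.46, 0.07, 0.72, 0.30 and −0.16, highest in replicate 3. Results are therefore given with all arrays and without control replicate 4, and counts also without control replicate 4 and DicerCN replicate 3 together, a setting chosen after the data were seen.

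Of the 38 collagens, 1 rose in DicerCN lenses and 0 fell. The riser was Col13a1. A gene counts as changed here when its p from limma, adjusted by Benjamini-Hochberg over all 19938 genes, was under 0.05. By this rule 2.56% of all genes rose and 3.97% fell, 6.54% in either direction. At an unadjusted p under 0.05, 3 collagens were higher and 0 lower, against 18.6% of all genes in either direction. The median change of the 38 genes (DicerCN minus control, log2) was 0.02, against −0.0014 for all genes, with 21 of 38 above zero. The groups did not overlap for 1 collagen, Col13a1, against 7.38% of all genes. Without control replicate 4, 2 of 38 rose and 0 fell (2.31% of all genes rose and 6.22% changed in either direction). In that set the groups did not overlap for 2 collagens (9.86% of all genes). An unadjusted p under 0.05 was found for 9 of 38 collagens, against 3723 of all 19938 genes. The median was 0.09 and 29 were above zero, against 48.8% of all genes. Without that array and DicerCN replicate 3, 2 rose (2.05% of all genes) and 27 were above zero (48.4% of all genes), with a median of 0.06.

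**Figure D1:**
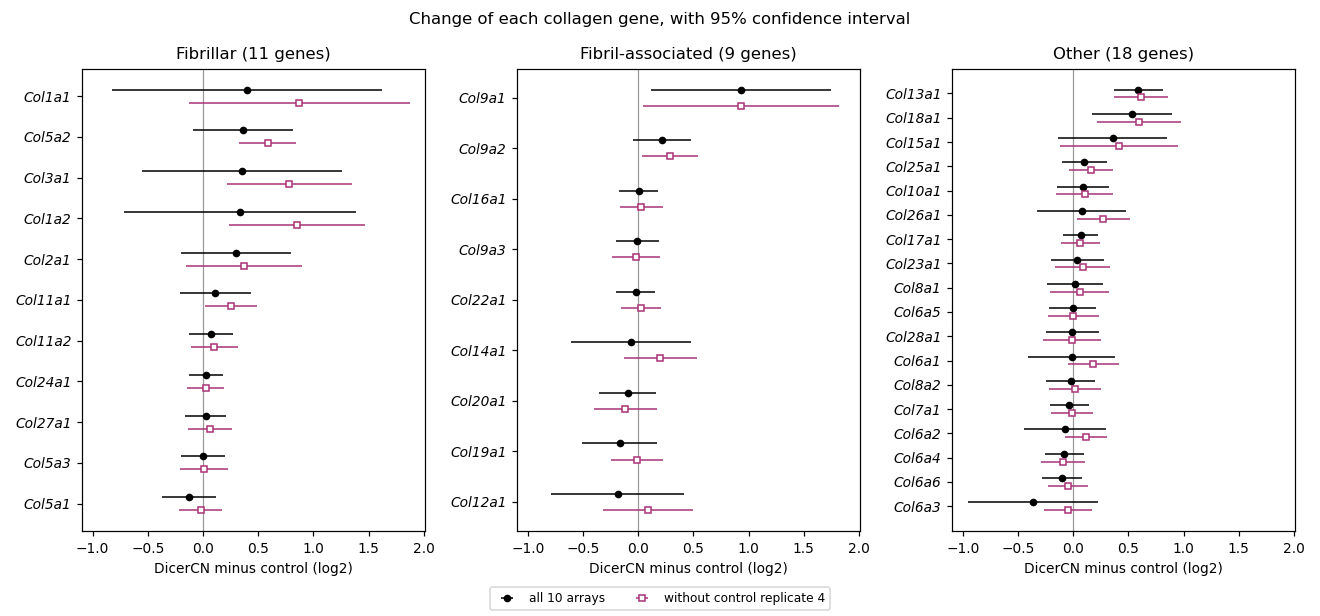
Change of each of the 38 collagens in log2 units, DicerCN minus control, with its 95% confidence interval, by class. Black points use all 10 arrays and open squares leave out control replicate 4; the intervals of Col1a1, Col1a2 and Col3a1 are the widest among the fibrillar genes, and that of Col13a1 lies above zero in both.

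The 11 fibrillar collagens, which make the tensile fibrils of connective tissue, gave no call with all arrays. With all arrays none of the 11 had an unadjusted p under 0.05, their median change was 0.11 and 9 lay above zero. When control replicate 4 was left out the median was 0.25, 10 lay above zero, 4 had an unadjusted p under 0.05 and 1, Col5a2, rose. In that fit 3723 of all 19938 genes had an unadjusted p under 0.05, 48.8% lay above zero and 2.31% rose. Col1a1, the alpha 1 chain of type I collagen, read (log2 signal, replicates 1 to 5) 8.64, 8.02, 8.44, 10.66 and 8.06 in controls, and 8.66, 8.92, 11.19, 8.56 and 8.49 in DicerCN lenses. Control replicate 4 and DicerCN replicate 3 stood more than 2 log2 units above the rest of their own groups, and the groups overlapped. Its change was 0.40 (SE 0.57, 95% interval −0.83 to 1.62, limma adjusted p = 0.790), an interval that excludes neither a rise nor a fall. Without DicerCN replicate 3 the change was −0.11.

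Col1a2, the alpha 2 chain of type I, had signals of 8.10, 7.71, 8.08, 10.44 and 7.54 in control and of 8.47, 8.59, 9.78, 8.78 and 7.94 in DicerCN replicates. Col3a1, type III collagen of elastic tissues and vessel walls, had 7.78, 7.74, 8.04, 9.91 and 7.48 in control and 8.62, 8.41, 9.33, 8.75 and 7.61 in DicerCN replicates. In both genes control replicate 4 was the highest of all arrays and DicerCN replicate 3 the second highest. With all arrays Col1a2 stood at 0.34 (95% interval −0.72 to 1.39) and Col3a1 at 0.35 (−0.55 to 1.26). Without control replicate 4 they stood at 0.85 (SE 0.28, limma adjusted p = 0.110) and 0.78 (SE 0.26, adjusted p = 0.111), and their control SD went from 1.18 to 0.28 and from 0.98 to 0.23. Col1a1, Col1a2 and Col3a1 did not pass the test in either set of arrays.

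Col5a2, a type V chain that helps set fibril diameter, was the fibrillar gene whose call depended on control replicate 4. Its signals were 6.78, 6.77, 6.91, 7.90 and 6.65 in control and 7.61, 7.08, 7.55, 7.42 and 7.16 in DicerCN replicates. All 5 DicerCN arrays lay above 4 of the 5 controls and below control replicate 4. The change was 0.36 (SE 0.21, adjusted p = 0.400) with all arrays. Without control replicate 4 it rose by 0.59 (SE 0.12, limma adjusted p = 0.0127), and without DicerCN replicate 3 as well by 0.54 (adjusted p = 0.0269). Col5a2 is the next protein-coding gene to Col3a1 on chromosome 1. With the mesenchyme score as a covariate its change was 0.08 (adjusted p = 0.830, in a fit that called 3.94% of all genes), and those of Col1a1, Col1a2 and Col3a1 were −0.37, −0.37 and −0.27.

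Col2a1, the type II collagen of cartilage and vitreous, had signals of 7.34, 7.60, 7.89, 7.94 and 7.42 in control and of 7.31, 7.37, 8.19, 8.25 and 8.55 in DicerCN replicates. DicerCN replicates 3, 4 and 5 lay above all controls and replicates 1 and 2 among the lowest. Its change was 0.30 (SE 0.23, adjusted p = 0.567). The other 6 fibrillar genes, namely Col5a1, Col5a3, Col11a1, Col11a2, Col24a1 and Col27a1, had changes between −0.13 and 0.11, with 95% intervals that together ran from −0.38 to 0.43. Col11a1 stood at 0.25 (95% interval 0.02 to 0.48, adjusted p = 0.228) and Col5a1 at −0.02 without control replicate 4.

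**Figure D2:**
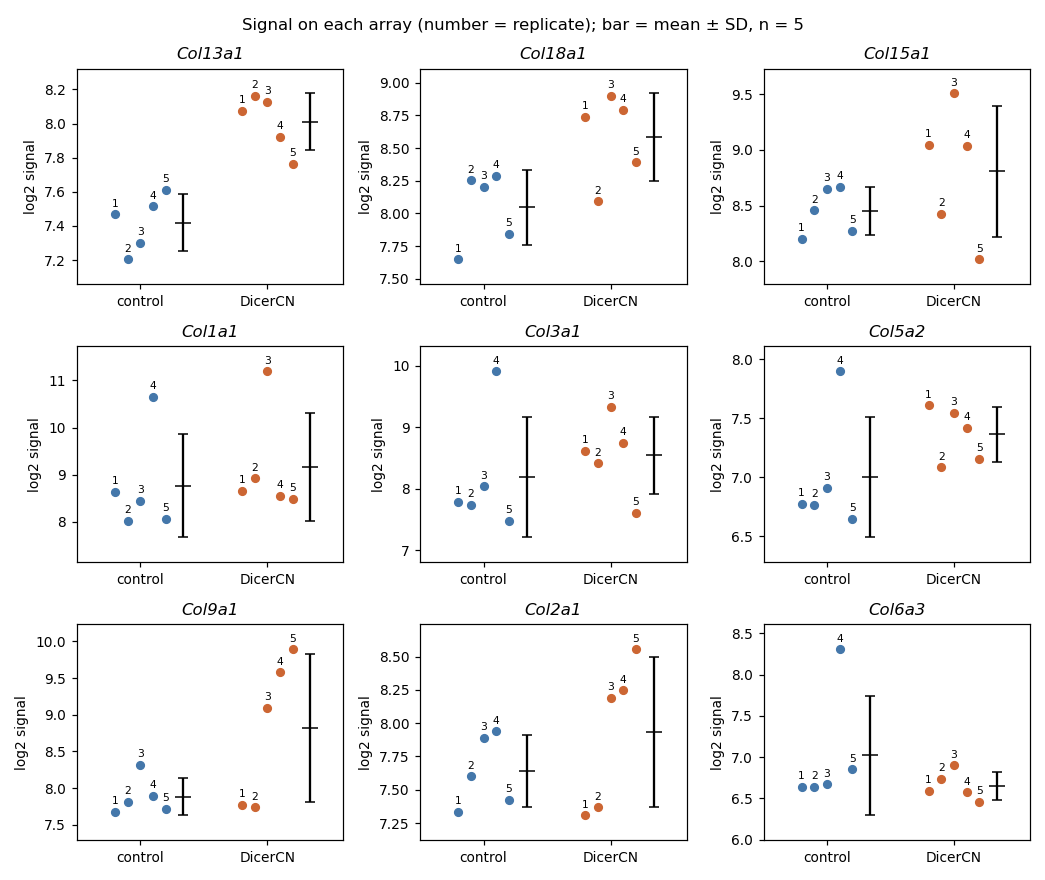
Log2 signal of 9 collagens on each array, with the replicate number beside each point and the group mean ± SD (n = 5) as a bar; vertical scales differ between genes. Control replicate 4 is far above the other controls in Col1a1, Col3a1, Col5a2 and Col6a3, DicerCN replicates 3 to 5 are high in Col9a1 and Col2a1, and the groups separate in Col13a1.

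The 9 fibril-associated collagens gave no call in either set of arrays. With all arrays Col9a1 alone had an unadjusted p under 0.05, the median change was −0.02 and 3 of 9 lay above zero. Leaving out control replicate 4, the median was 0.03 and 6 of 9 lay above zero. In that fit 2 of 9 had an unadjusted p under 0.05, against 3723 of all 19938 genes. Leaving out DicerCN replicate 5 instead, the median was also 0.03, with 6 of 9 above zero. The sign of a median this near zero thus depended on the arrays used. Col9a1, a chain of the type IX collagen that coats type II fibrils, had log2 signals of 7.68, 7.82, 8.32, 7.89 and 7.72 in control and of 7.77, 7.74, 9.10, 9.58 and 9.89 in DicerCN replicates. DicerCN replicates 3, 4 and 5 lay above all controls, as they did for Col2a1. Replicates 1 and 2 of Col9a1 lay within its control range. The change of 0.93 (SE 0.37, 95% interval 0.12 to 1.74) was the largest of the 38 and did not pass (limma adjusted p = 0.193, and 0.239 without control replicate 4).

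Col9a2, the partner chain of type IX collagen, had signals of 7.25, 7.30, 7.05, 7.60 and 7.38 in control and of 7.20, 7.52, 7.56, 7.80 and 7.57 in DicerCN replicates. The groups overlapped, and the change was 0.21 (SE 0.12, adjusted p = 0.387). Col9a3, the remaining chain of type IX, stood at −0.01 (95% interval −0.20 to 0.19). Among retina markers, the progenitor regulator Lhx2 was at 6.91 to 8.14 in control and at 7.36, 7.62, 8.29, 9.34 and 9.63 in DicerCN replicates 1 to 5, and Rax was at 6.84 to 8.19 in control and at 6.83, 7.29, 8.08, 9.18 and 9.76. Both were above all controls in DicerCN replicates 4 and 5, and in replicate 3 Lhx2 was and Rax was not. The other measured retina markers were all above all controls in replicate 5, but Elavl3, Stmn2 and Hes5 were not in replicate 4. In replicate 3 only Six6 of these others was (8.30, controls at most 8.26). Atoh7 was below all controls there (7.91 against 7.95 to 8.60). In replicate 2 Isl1, Elavl3 and Stmn2 were above all controls. The score over 10 measured retina markers ran from −0.34 to 0.47 in control and was −0.31, 0.32, 0.21, 1.0 and 1.97 in DicerCN replicates 1 to 5, so that replicate 3, where Col9a1 was high, scored below replicate 2, where it was not. The part of retina in the signals of Col9a1 and Col2a1 was not tested. The score over 9 cartilage and bone markers lay between −0.11 and 0.12 on all arrays, with Acan, aggrecan of cartilage, between 5.38 and 5.63.

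Among the other 6 genes of this class, Col12a1 and Col14a1, which bind type I fibrils, were high on control replicate 4 by 1.37 and 1.33 over the mean of the other controls. Their changes were −0.18 and −0.06 with all arrays and 0.09 and 0.20 without that array, none past the test. Col16a1, Col19a1, Col20a1 and Col22a1 had changes from −0.17 to 0.01, with 95% intervals between −0.51 and 0.18. Col19a1 lies next to Col9a1 on chromosome 1, and its change was −0.17 (adjusted p = 0.658) with all arrays and −0.01 without control replicate 4.

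Of the 18 other collagens 1 rose, the transmembrane collagen Col13a1 (probe set 10369485), whose protein sits at sites of cell adhesion and at the neuromuscular junction. Its log2 signals were 7.47, 7.20, 7.30, 7.51 and 7.61 in control and 8.07, 8.16, 8.13, 7.92 and 7.76 in DicerCN replicates. Every DicerCN array lay above every control. It rose by 0.59 (SE 0.10, 95% interval 0.37 to 0.81, 1.51-fold, limma adjusted p = 0.00454). Without control replicate 4 the rise was 0.61 (adjusted p = 0.00707), and over the 10 fits that left out 1 array it ranged from 0.54 to 0.65 with an adjusted p of at most 0.0159. Macrophage markers were also higher in DicerCN lenses (2 of 12 rose, Csf1r by 0.86 and Cx3cr1 by 0.73, and 0 fell; score −0.32 to 0.37 in control and 0.17 to 0.92 in DicerCN lenses). Adding the macrophage score to the fit, the change of Col13a1 was 0.56 (SE 0.15) and its adjusted p was 0.106, in a fit that called 1.14% of all genes. With the mesenchyme score as a covariate it was 0.53 (adjusted p = 0.0184).

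The remaining 3 transmembrane collagens, Col17a1 of hemidesmosomes, Col23a1 and Col25a1, had changes of 0.07, 0.04 and 0.10, and none passed. Their 95% intervals lay between −0.20 and 0.30, below the lower limit of 0.37 for Col13a1. Mean signals of Col17a1 (6.32 in control and 6.39 in DicerCN lenses) and Col25a1 (6.31 and 6.41) were below the median of all probe sets (6.54). Such low levels limit what their small changes show. Col23a1 (7.45 and 7.49) was above that median. No test compared these genes with one another.

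Col18a1 and Col15a1 encode the basement membrane collagens XVIII and XV, whose released ends include endostatin. Col18a1 had log2 signals of 7.65, 8.25, 8.20, 8.29 and 7.84 in control and of 8.74, 8.09, 8.90, 8.79 and 8.39 in DicerCN replicates. All DicerCN arrays except replicate 2 lay above all controls. The change was 0.54 (SE 0.17, 95% interval 0.17 to 0.90, limma adjusted p = 0.0814), 0.60 without control replicate 4 (adjusted p = 0.0687), and it passed without DicerCN replicate 2 (0.66, adjusted p = 0.0271, in a fit where 2.42% of all genes rose). With the mesenchyme score in the fit it was 0.39 (adjusted p = 0.223, in a fit that called 3.94% of all genes). With the macrophage score it was 0.04 (adjusted p = 0.942, in a fit that called 1.14%). The macrophage score was itself higher in DicerCN lenses (0.17 to 0.92, against −0.32 to 0.37 in control). That fit therefore cannot tell a change with the score from a change between the groups. Col15a1 had 8.20, 8.46, 8.65, 8.67 and 8.27 in control and 9.05, 8.43, 9.51, 9.04 and 8.02 in DicerCN replicates. DicerCN replicates 1, 3 and 4 lay above all controls and replicate 5 below all of them, and the change was 0.36 (SE 0.23, adjusted p = 0.462). The score over 13 vessel markers had the same 3 arrays on top: 0.64, −0.20, 0.80, 0.38 and −0.36 in DicerCN replicates 1 to 5, against −0.26 to 0.24 in control. Of these markers 0 passed the test, and their part in the signals of both genes was not tested. In such whole tissue, more cells of a type and more RNA per cell cannot be told apart.

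All 6 chains of type VI collagen, the beaded filament of muscle and connective tissue, had changes below zero and none passed. Col6a3 was the lowest, with signals of 6.64, 6.64, 6.67, 8.31 and 6.85 in control and of 6.60, 6.74, 6.90, 6.57 and 6.46 in DicerCN replicates. Control replicate 4 alone stood above the range shared by the other 9 arrays. The change was −0.37 (SE 0.27, adjusted p = 0.542), and −0.04 (SE 0.10, 95% interval −0.26 to 0.17) without that array. Col6a1 and Col6a2, neighbours on chromosome 10, stood at −0.01 and −0.07 with all arrays and at 0.18 and 0.12 without it. Without control replicate 4, 3 of the 6 chains lay above zero. Col6a4, Col6a5 and Col6a6, consecutive protein-coding genes on chromosome 9, had changes of −0.08, −0.01 and −0.10. The second probe sets of Col6a5 and Col6a6 gave 0.0016 and −0.09.

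The network and anchoring collagens Col7a1, Col8a1, Col8a2 and Col10a1 had changes between −0.03 and 0.09, with 95% intervals from −0.25 to 0.33. Col26a1 stood at 0.08 and Col28a1 at −0.01. Col26a1 was high on control replicate 4 (8.47 against 7.32 to 7.62 on the other controls), and without that array its change was 0.27 (adjusted p = 0.198). Levels near the lower end of the scale limit some of these values: 27 of the 38 collagens had a mean signal above the median of all probe sets (6.54).

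Control replicate 4 was the highest of the 5 controls in 24 of 38 collagens (63.2%), against 16.7% of all genes. By class these were 8 of 11 fibrillar, 6 of 9 fibril-associated and 10 of 18 other collagens. The median excess over the mean of the other controls was 0.52 for fibrillar, 0.23 for fibril-associated and 0.22 for other collagens, and −0.03 for all genes. DicerCN replicate 3 was the highest DicerCN array in 19 of 38 collagens, against 23.9% of all genes. The fibrillar score (mean log2 signal minus the control mean) was 0.74 on control replicate 4 and −0.23 to −0.14 on the other controls. On DicerCN replicates 1 to 5 it was 0.01, 0.03, 0.62, 0.20 and −0.02, above the other 4 controls on every array.

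Control replicate 4 and DicerCN replicate 3, where fibrillar collagens scored highest, were also the arrays where mesenchyme markers scored highest. DicerCN replicate 1 scored 0.46 for mesenchyme markers and 0.01 for fibrillar collagens. The part of mesenchyme in the collagen signals was not tested. The covariate fit above cannot decide it, because the score includes the matrix genes Dcn, Postn and Lum. On control replicate 4 these stood 3.07, 2.58 and 1.37 above the mean of the other controls. The other markers in the score ranged there from −0.13 (Pdgfra) to 0.78 (Prrx1). Dcn, the proteoglycan decorin that binds type I fibrils, had 6.76, 6.37, 6.70, 9.60 and 6.30 in control replicates. In DicerCN replicates it had 7.76, 6.83, 8.72, 8.0 and 6.64, so the same 2 arrays were the highest of their groups. This also held for Twist1, Prrx1, Lum and Postn. It did not hold for the mesenchyme markers Foxc1, Foxc2, Twist2, Prrx2, Pdgfra and Tbx18. Of 11 mesenchyme markers 1 rose (Prrx2, by 0.56) and 1 fell (Pdgfra, by 0.58), and Pdgfra is also a receptor of lens epithelium. Without control replicate 4 Pdgfra did not pass (adjusted p = 0.0537). The muscle score of DicerCN replicate 3 was −0.62, within the range of the arrays other than control replicate 4, so muscle and fibrillar signals were high together on control replicate 4 only. Of the other marker lists, pigment epithelium scored −0.24 to 0.24 in control and −0.02 to 1.88 in DicerCN lenses with 0 of 6 genes past the test, and cornea and skin scored −0.21 to 0.28 over all arrays with 0 of 7. Of 9 cartilage and bone markers 1 fell, Alpl (alkaline phosphatase), and 0 rose, and of 10 retina and 10 muscle markers 0 passed.

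**Figure D3:**
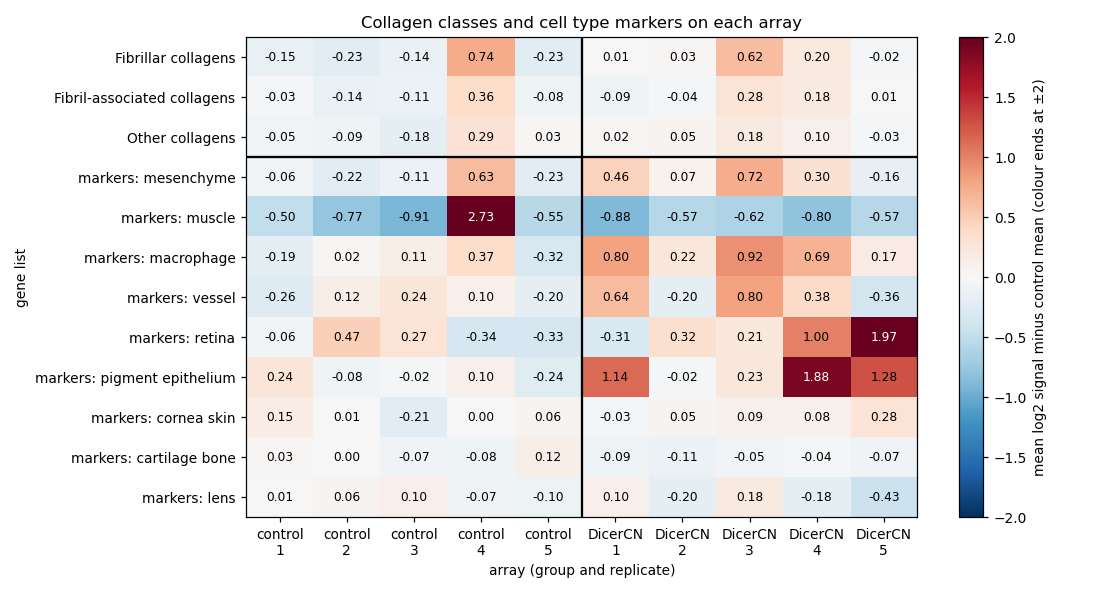
Scores of the 3 collagen classes and of 9 marker lists on each array, as the mean over genes of log2 signal minus the control mean (colour and printed value). Fibrillar collagens score 0.74 on control replicate 4 and 0.62 on DicerCN replicate 3, the arrays on which mesenchyme markers score 0.63 and 0.72; muscle markers score 2.73 on control replicate 4 alone.

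Genes that make, bind and break down collagen were read from 6 lists with 51 measured genes of 54 listed. In DicerCN lenses 2 of the 51 rose and 1 fell, a share near the 6.54% of all genes that changed, and their median change was 0.14. Prolyl 4-hydroxylation of collagen chains, needed for a stable triple helix, depends on alternative catalytic subunits, and these changed in opposite directions. P4ha1 had log2 signals of 11.10, 11.02, 11.14, 10.74 and 11.50 in control and of 10.66, 10.68, 10.27, 9.92 and 9.99 in DicerCN replicates. It fell by 0.80 (SE 0.17, 1.74-fold lower, limma adjusted p = 0.0152). P4ha2 had 6.82, 7.18, 6.88, 7.08 and 6.98 in control and 8.20, 7.81, 8.13, 7.52 and 7.44 in DicerCN replicates. It rose by 0.83 (SE 0.15, 1.78-fold, adjusted p = 0.00499). In both genes the groups did not overlap, and both calls held without control replicate 4 (−0.89 and 0.85, adjusted p = 0.00975 and 0.00823). P4ha3 stood at 0.18 and P4hb, the shared beta subunit, at 0.11, and neither passed. With the macrophage score in the fit neither call held (P4ha1 −0.62, adjusted p = 0.276, and P4ha2 0.56, adjusted p = 0.191). That fit called 1.14% of all genes, and its median SE over all genes was 0.14, against 0.10 in the main fit. The macrophage score was itself higher in DicerCN lenses, so the fit cannot tell a change with it from a change between the groups. With the mesenchyme score, in a fit that called 3.94% of all genes, the call of P4ha1 was just lost (−0.74, adjusted p = 0.0506).

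Of the 15 genes of prolyl and lysyl modification the other 13 did not pass. Of 7 collagen receptors 1 rose: Itga2, the alpha 2 subunit of a collagen-binding integrin, had 8.71, 8.46, 8.88, 8.52 and 8.61 in control and 9.49, 9.06, 9.19, 9.04 and 8.77 in DicerCN replicates. The highest control lay between the DicerCN arrays, and the rise of 0.47 (SE 0.12, adjusted p = 0.0404) lost its call without any 1 of 8 arrays (adjusted p = 0.0624 to 0.105), control replicate 4 among them (0.44, adjusted p = 0.0774). Of 12 genes of collagen breakdown 0 passed in limma. Mmp2, a gelatinase that cuts unwound collagen, stood at 0.52 (SE 0.15, adjusted p = 0.0655), and without control replicate 4 it rose by 0.63 (adjusted p = 0.0201). Of 6 measured genes of folding and export, 7 of propeptide processing and 4 of crosslinking, 0 passed. Their genes of smallest p were Mia3, which loads procollagen for export (0.21, adjusted p = 0.218), Bmp1, the procollagen C-proteinase (0.16, adjusted p = 0.354), and Lox, lysyl oxidase. Lox was at 7.18 on DicerCN replicate 3 and between 4.49 and 5.54 on the other 9 arrays, so its change of 0.39 (adjusted p = 0.705) came to −0.09 without that array.

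**Figure D4:**
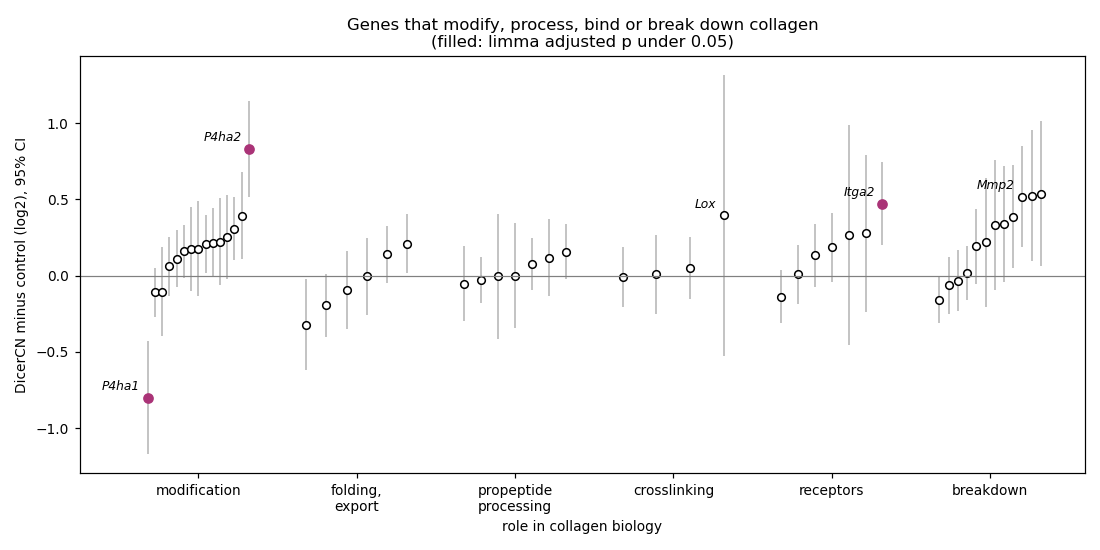
Change of the 51 measured genes of collagen modification, export, processing, crosslinking, binding and breakdown (DicerCN minus control, log2, with 95% confidence interval). Filled points passed the test: P4ha1 fell by 0.80, P4ha2 rose by 0.83 and Itga2 rose by 0.47, while Lox and Mmp2 are named and did not pass.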

How the data were processed

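Total RNA (100 ng per embryo) was labelled with the Affymetrix whole-transcript sense assay, per the labels' protocols, and GCOS is the software that the submitters' processing notes name. The deposited values are taken as log2 signals from their range (1.91 to 15.24). The authors' summary and normalization method and the log base are not given in the sources used here. Precision is limited by the number of arrays. Of 35557 probe sets, 21789 had 1 symbol in the platform annotation, 1621 several and 12147 none. Only the first kind was used. RefSeq gene IDs (assembly GRCm38.p6) were found for 21698 of them. For each gene the probe set of highest mean over 10 arrays was kept. Groups came from the sample titles, and 0 other sample columns were present. DicerCN and control were compared over all 19938 genes with limma 3.58.1 (R 4.3.3, lmFit and eBayes, 2-sided, Benjamini-Hochberg, threshold 0.05). The fit was also run on simulated data with independent noise for each gene and array. Those data hold no array with many genes shifted together, so they do not test how such an array affects the calls. Signals of different genes were not ranked against one another, except that levels were set against the median of all probe sets. Alternatives were single arrays left out, the replicate number as a block, the mean of probe sets, quantile normalization, a low signal filter, array weights, and mesenchyme or macrophage scores as covariates. Members and lists were chosen with earlier results of these data known. Named genes were those past the test, the 6 collagens of next smallest p, and the gene of smallest p in each pathway list. Others named, among them Col1a1, Col1a2, Col3a1 and Col2a1, and all marker genes, were chosen after their values were seen. Fkbp10, Adamts2, Loxl2 and 4 marker genes were listed and not analysed here.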

Additional observations from a re-analysis of the deposited data

Results flagged for a closer look

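A single array stood apart from the other 4 of its group in 15 of 76 combinations of collagen and group. Dixon's test was used at its 95% critical value of 0.71, which a single group passes by chance in about 1 in 20. The 76 combinations share the same 10 arrays and are not independent, so that rate does not measure how unusual the count is. The share over all genes was not computed. In 11 of the 15 it was control replicate 4 that was high. Its log2 signals, each against the nearest other control, were those of Col5a2 (7.90 against 6.91), Col6a3 (8.31 against 6.85), Col19a1 (6.22 against 5.57), Col3a1 (9.91 against 8.04), Col11a1 (7.19 against 6.61), Col1a1 (10.66 against 8.64), Col1a2 (10.44 against 8.10), Col6a2 (8.19 against 7.35), Col26a1 (8.47 against 7.62), Col14a1 (7.65 against 6.50) and Col6a1 (7.88 against 7.02). Type I, III, V, VI, XI, XIV, XIX and XXVI chains are among these, as the muscle score of 2.73 and the mesenchyme score of 0.63 are on the same array, and the part of those tissues in the signals was not tested.

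DicerCN replicate 3 was high in Col1a1 (11.19 against 8.92) and Col16a1 (6.93 against 6.71), and low in Col6a5 (5.97 against 6.15). Control replicate 3 was low in Col6a5 (5.80 against 6.17).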

How the results depend on the processing

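The number of collagens that rose, 1 with all arrays, was between 1 and 2 when single arrays were left out and 0 with the macrophage score in the fit, and the number that fell was 0 throughout. The fit with the macrophage score called 1.14% of all genes and that with the mesenchyme score 3.94%, against 6.54% in the main fit. Leaving out control replicate 4 and DicerCN replicate 3 together gave 2 that rose. Fibrillar calls ranged from 0 to 1 over the single arrays left out, with the 1 coming without control replicate 4, and were 1 without both arrays. Calls among the other collagens ranged from 1 to 2 (2 without DicerCN replicate 2) and were 0 with the macrophage score. Pathway calls were 3 with all arrays, where 511 of all 19938 genes rose and 792 fell. The pathway count ranged from 2 to 5 over single arrays left out. It was 5 without DicerCN replicate 5 (503 of all genes rose and 648 fell) and 5 with the replicate block (471 and 629). With array weights it was also 5 (679 and 971). It was 1 with the mesenchyme score and 0 with the macrophage score. Among genes above the median signal, where 580 of 10907 genes rose and 907 fell, the count of 4 calls stayed within 1.5 times. So did the counts after quantile normalization or with the mean of probe sets.

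The correlations of same-numbered arrays' deviations from their group means were 0.027, −0.088, 0.067, 0.19 and −0.021. Arrays of different numbers were not compared, so these values do not decide whether replicate numbers paired the arrays. With the replicate block Col13a1 kept its call (0.59, adjusted p = 0.0262), and the 5 pathway calls included Mmp2 (adjusted p = 0.0409).

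Signs turned in genes without a call. Over the single arrays left out, changes ran from −0.11 to 0.87 in Col1a1, −0.094 to 0.18 in Col6a1, −0.33 to 0.089 in Col12a1, −0.19 to 0.20 in Col14a1 and −0.09 to 0.57 in Lox. With both arrays out, Col6a1 was at 0.13, Col12a1 at 0.0053 and Col14a1 at 0.075. With the mesenchyme score Col1a1, Col1a2, Col3a1 and Lox were at −0.37, −0.37, −0.27 and −0.13. With the macrophage score Col5a2, Col15a1, Col1a1, Col1a2, Col3a1 and Lox were at −0.21, −0.37, −0.92, −0.93, −0.86 and −0.60. The cause was not tested. The macrophage covariate and the pair of arrays left out were chosen after seeing the data.

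With 5 arrays a group, the intervals of the type I and III genes span changes from a fall of 0.55 or more to a rise of 1.26 or more.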
